A study of Mus musculus with 8 samples.

Results

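The tumour necrosis factor (TNF) superfamily consists of ligands, mostly trimers made as membrane proteins, and of the receptors that bind them. Members were taken by gene symbol as every row starting with Tnfrsf or Tnfsf, together with Cd40, Cd27, Fas, Fasl, Ltb and Ltbr. 1 further symbol with the prefix was set aside by that rule and is not analysed here. The rule found 37 members among the 34432 gene rows, of which 23 encode receptors and 14 encode ligands. They were measured by RNA sequencing in bone marrow-derived macrophages (BMDMs), which are grown in culture from mouse marrow and were unstimulated (M0) on day 7. The DKO group (n = 4 libraries) carried loxP-flanked Cdk8 alleles (Cdk8 flox/flox), the Vav-iCre transgene and a null allele of Cdk19. The Vav-Cre control group (n = 4 libraries) carried the Cre driver, named VAV-cre in the labels. Both groups thus shared a Cre driven by the Vav promoter, which acts in blood-forming cells, whereas the Cdk19 null allele is not limited to them. The sources used here do not give the age and sex of the mice, or whether the libraries came from separate animals or cultures, so that p-values measure the spread between these libraries, which may be technical.

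TNF family receptors fall into broad kinds. Death-domain receptors such as Fas and Tnfrsf1a recruit the adaptors Fadd and Tradd and can start caspase-driven death or activate the transcription factor NF-kB. Other receptors, such as Tnfrsf1b, Cd40 and Ltbr, bind TRAF proteins and signal through the canonical NF-kB route, the non-canonical route that runs through the kinase Map3k14, or both. Macrophages are a main source of TNF and also express its receptors, and proteases of the Adam family release several ligands and receptors from the cell surface. Cdk8 and Cdk19 are related kinases of the Mediator complex, which links transcription factors to RNA polymerase.

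Each library held 20159190 to 21353207 reads assigned to genes in DKO cells and 17856715 to 20761744 in Vav-Cre cells (two-sided exact permutation test, p = 0.171, smallest possible p = 0.0286). Values below are DESeq2-normalized read counts, called normalized reads. Cdk19 averaged 372.8 ± 25.8 normalized reads in DKO cells and 1452 ± 189 in Vav-Cre cells (SD, n = 4 each; log2 fold change -1.95, SE 0.10, limma adjusted p = 2.95e-08). Cdk8 averaged 347 ± 60.8 normalized reads in DKO cells and 439 ± 24.5 in Vav-Cre cells (log2 fold change -0.35, SE 0.12, adjusted p = 0.0374), the groups overlapped, and the adjusted p ran from 0.0078 to 0.104 when single libraries were left out. A gene-level count includes exons outside a floxed region, so the Cdk8 value does not measure the deletion. Within the DKO group, libraries 1 and 2 and libraries 3 and 4 differed least, with a chi-square per gene of 7.93 and 9.01 against 18.6 to 25.3 across these pairs. Among Vav-Cre libraries this value ran from 9.08 for libraries 2 and 3 to 36.2 for libraries 1 and 4.

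Among the 23 members tested, 7 were higher and 4 were lower in DKO cells at an adjusted p under 0.05, which is 47.8% of the members, against 46.6% of all 11675 genes tested. The share of called members was therefore close to the background, where 22.9% of genes were higher and 23.8% were lower. The log2 fold changes had a median of 0.08 over the members and 0.01 over all genes, and a median size of 0.35 and 0.31. For 9 members (39.1%) the DKO and Vav-Cre libraries did not overlap, against 42.9% of all genes. 5 members (21.7%) were called with at least a 2-fold difference, against 10.9% of all genes, and 2 of these 5, Tnfsf12 and Tnfsfm13, overlap in the genome and share sequence. The other 3 were Tnfrsf26, Tnfsf14 and Fas. The 14 members that were not tested stayed under 10 normalized reads in more than 4 libraries.

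**Figure D1:**
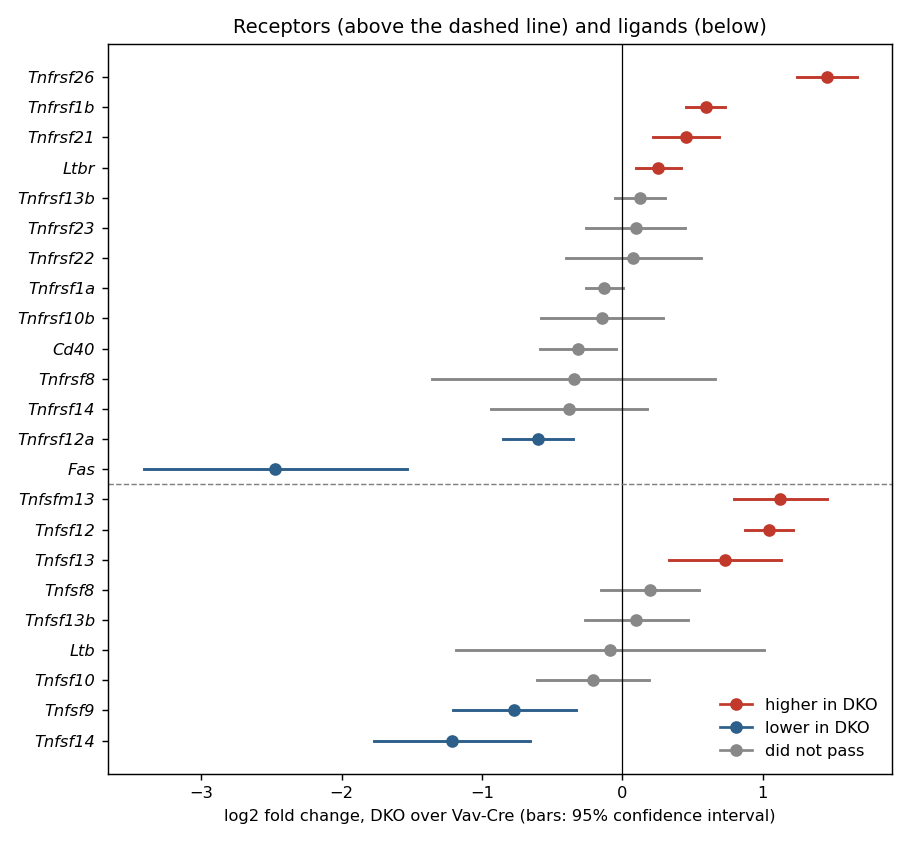
Log2 fold change (x axis, DKO over Vav-Cre) of each of the 23 tested members, with bars for the 95% confidence interval; colour shows the call at an adjusted p under 0.05. Fas at -2.47 lies farthest to the left and Tnfrsf26 at 1.46 farthest to the right.

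The samples were also compared in marker genes, since RNA from another cell type could carry family members. In bulk RNA, fewer cells of a type and less RNA per cell cannot be told apart. The 8 macrophage markers summed to 197672 to 215812 normalized reads in DKO cells and to 282015 to 297954 in Vav-Cre cells, with 3 of the 8 higher and 5 lower. Lyz2 was the largest part of that sum, at 96662 ± 3387 in DKO cells and 160549 ± 7665 in Vav-Cre cells. Cd68, Cd14 and Mertk were higher, and Lyz2, Csf1r, Adgre1, Itgam and Fcgr1 were lower. The 6 monocyte markers summed to 383 to 489 in DKO cells and 2272 to 2709 in Vav-Cre cells, and 3 of the 6 fell. The 8 neutrophil markers summed to 847 to 1123 in DKO cells and 1914 to 3015 in Vav-Cre cells, and 6 of the 7 tested fell. The 5 B and plasma cell markers reported here summed to 47.8 to 70.4 in DKO cells and 121 to 147 in Vav-Cre cells. Cd79b, the 1 gene of that list tested, carried most of the sum and was lower, at 51.2 ± 8.32 in DKO cells and 134 ± 9.97 in Vav-Cre cells, and the others were too low to test. Among the 8 T and NK cell markers, Cd3e, Cd3g, Cd2, Trac and Ncr1 were at 0 in every library, and the sum was 1598 to 1929 in DKO cells and 986 to 1257 in Vav-Cre cells. Nearly all of that sum was Il7r, at 1802 ± 142 normalized reads in DKO cells and 1111 ± 115 in Vav-Cre cells, the 1 higher gene of the 2 tested, while Lck did not pass and Klrb1c was near 0. The 7 dendritic cell markers summed to 33.1 to 66.3 in DKO cells and 57.7 to 89.7 in Vav-Cre cells, with Cd209a at 0, and the 8 stromal and endothelial markers to 259 to 449 in DKO cells and 385 to 588 in Vav-Cre cells. The macrophage, monocyte, neutrophil and B cell sums were lower in every DKO library than in every Vav-Cre library, as were Fas, Tnfsf14 and Tnfrsf12a below, and the T and NK cell sum was higher. The part of these cell types in the members' values was not tested.

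The receptors of TNF itself were among the most abundant members. Tnfrsf1b, the TNF receptor without a death domain (chromosome 4, 145213463 to 145246870, minus strand, mm10), had 7412, 7246, 6721 and 6661 normalized reads in DKO cells, against 4328, 4718, 4579 and 4973 in Vav-Cre cells. Every DKO library lay above every Vav-Cre library, and the difference was 1.51-fold (log2 fold change 0.59, SE 0.06, adjusted p = 1.32e-05). Tnfrsf1a, the death-domain TNF receptor found on most cell types, had 3244, 3057, 2863 and 3043 normalized reads in DKO cells, against 3252, 3517, 3392 and 3175 in Vav-Cre cells. The groups overlapped and Tnfrsf1a did not pass the test (log2 fold change -0.13, 95% confidence interval -0.26 to 0.01, adjusted p = 0.106). Scaled to exon length, Tnfrsf1b had 1836 ± 98.4 normalized reads per kb in DKO cells and 1218 ± 70.5 in Vav-Cre cells, and Tnfrsf1a had 1178 ± 60.02 in DKO cells and 1287 ± 58.6 in Vav-Cre cells (SD, n = 4 each). The ratio of Tnfrsf1b to Tnfrsf1a per kb, chosen after the values were seen, was 1.55, 1.61, 1.59 and 1.49 in the DKO libraries, against 0.903, 0.910, 0.916 and 1.06 in the Vav-Cre libraries. Tnfrsf1b thus had more reads per kb than Tnfrsf1a in all 4 DKO libraries and in Vav-Cre replicate 4, and fewer in the other Vav-Cre libraries. Exon lengths came from GENCODE M21, and the annotation used for counting is not given. The order of the receptors in Vav-Cre cells, at ratios of 0.903 to 1.06, is therefore uncertain. Tnf, their shared ligand, lies outside the symbol rule and averaged 596 ± 64.7 normalized reads in DKO cells and 657 ± 104 in Vav-Cre cells, a difference that did not pass (log2 fold change -0.13, SE 0.12, adjusted p = 0.386).

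**Figure D2:**
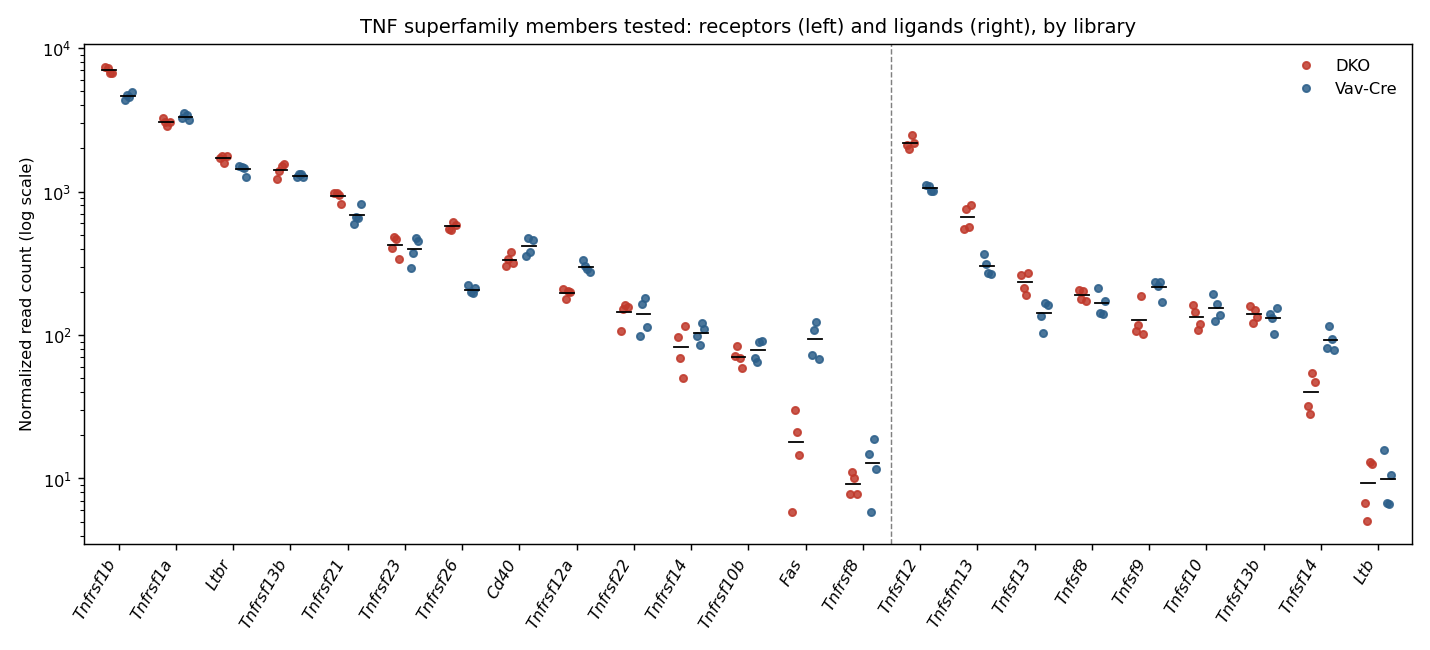
Normalized reads (y axis, log scale) of the 23 tested members in each library, receptors on the left and ligands on the right, with DKO points left of Vav-Cre points; bars mark the group means. The DKO points of Tnfrsf1b, Tnfrsf26 and Tnfsf12 all lie above the Vav-Cre points, and those of Fas, Tnfsf14 and Tnfrsf12a all lie below.

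Death-domain receptors moved in different directions. Fas, the receptor through which Fasl starts apoptosis (chromosome 19, 34290666 to 34327772, plus strand), had 5.83, 30.2, 21.0 and 14.6 normalized reads in DKO cells, against 72.7, 108, 123 and 68.5 in Vav-Cre cells. All DKO values lay under the lowest Vav-Cre value, and Fas was 5.55-fold lower in DKO cells (log2 fold change -2.47, SE 0.43, 95% confidence interval -3.41 to -1.54, adjusted p = 0.000604). The Fas estimate was -2.05 without DKO replicate 1, whose value was the lowest, and -1.93 with a pseudocount of 10. Fasl had no read in any library. Tnfrsf21, a death-domain receptor also known as death receptor 6, was called with a fold under the size set for giving each library, and was chosen after its values were seen. It had 982, 978, 952 and 819 normalized reads in DKO cells, against 593, 663, 657 and 822 in Vav-Cre cells. Vav-Cre replicate 4 overlapped the DKO range, and Tnfrsf21 rose by 0.45 on the log2 scale (SE 0.11, adjusted p = 0.00454). Tnfrsf10b, the receptor of Tnfsf10 (TRAIL) that can signal death, had 58.5 to 83.4 normalized reads in DKO cells and 64.8 to 90.6 in Vav-Cre cells and did not pass (log2 fold change -0.15, SE 0.20, adjusted p = 0.583). Tnfrsf25 had no read in any library.

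Receptors that bind TRAF proteins included members that rose and a member that fell. Ltbr, the lymphotoxin beta receptor, had 1706, 1757, 1594 and 1756 normalized reads in DKO cells, against 1501, 1481, 1463 and 1268 in Vav-Cre cells. Its groups did not overlap and Ltbr was 1.19-fold higher (log2 fold change 0.26, SE 0.07, adjusted p = 0.0132), but it no longer passed when DKO libraries 1 and 2, and 3 and 4, were averaged into 2 samples (adjusted p = 0.0622). Ltb, which forms lymphotoxin heterotrimers that bind Ltbr, had 6.80, 5.03, 13.004 and 12.7 normalized reads in DKO cells, against 15.7, 6.77, 6.66 and 10.6 in Vav-Cre cells, and did not pass (log2 fold change -0.09, 95% confidence interval -1.19 to 1.01, adjusted p = 0.9001). Tnfrsf12a, the receptor of Tnfsf12 (TWEAK), had 211, 178, 201 and 199.8 normalized reads in DKO cells, against 335, 303, 286 and 276 in Vav-Cre cells. It was 1.52-fold lower in DKO cells, without overlap (log2 fold change -0.60, SE 0.11, adjusted p = 0.00119). Cd40, also chosen after its values were seen, activates macrophages when T cells supply its ligand, and had 301, 339, 380.1 and 319.6 normalized reads in DKO cells, against 357, 477, 379.5 and 459 in Vav-Cre cells. The groups overlapped and Cd40 lay just outside the threshold (log2 fold change -0.31, 95% confidence interval -0.58 to -0.04, adjusted p = 0.0558). Cd40 passed with edgeR (adjusted p = 0.0495), with DESeq2 (0.0419), without DKO replicate 3 (0.0394) and without Vav-Cre replicate 1 (0.0270).

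Tnfrsf13b (TACI), a receptor of Tnfsf13 and Tnfsf13b best known from B cells, had 1227, 1389, 1499 and 1550.4 normalized reads in DKO cells, against 1253, 1334, 1334 and 1253 in Vav-Cre cells. It was the fifth member by level per kb, with overlapping groups and no call (log2 fold change 0.13, 95% confidence interval -0.05 to 0.30, adjusted p = 0.225). Tnfrsf17 and Tnfrsf13c, the other receptors of this ligand pair, had no read in any library. Tnfrsf14, which binds Tnfsf14, had 97.1, 69.4, 50.02 and 115 normalized reads in DKO cells, against 98.3, 85.1, 122 and 109.9 in Vav-Cre cells, and did not pass (log2 fold change -0.38, 95% confidence interval -0.93 to 0.18, adjusted p = 0.244). Tnfrsf8, the receptor of Tnfsf8, had 7.77 to 11.1 normalized reads in DKO cells and 5.80 to 18.9 in Vav-Cre cells, close to the lowest level tested (log2 fold change -0.35, SE 0.46, adjusted p = 0.570).

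Tnfrsf26 lies beside the mouse decoy receptors Tnfrsf22 and Tnfrsf23, which bind TRAIL without signalling death, in a 78.2 kb cluster on chromosome 7 (143607659 to 143685872). It had 547, 539.8, 611 and 588 normalized reads in DKO cells, against 223, 198, 198 and 211 in Vav-Cre cells. The DKO values were all more than the highest Vav-Cre value, and Tnfrsf26 was 2.74-fold higher (log2 fold change 1.46, SE 0.10, 95% confidence interval 1.24 to 1.67, adjusted p = 2.49e-07). Tnfrsf23 had 405, 481, 467 and 336 normalized reads in DKO cells, against 295, 375, 473 and 450.3 in Vav-Cre cells (log2 fold change 0.09, 95% confidence interval -0.26 to 0.45, adjusted p = 0.663). Tnfrsf22 had 107 to 163 normalized reads in DKO cells and 98.3 to 181 in Vav-Cre cells (log2 fold change 0.08, 95% confidence interval -0.40 to 0.56, adjusted p = 0.800). Neither neighbour passed, and both overlapped between groups. In annotated transcripts, 38.3% of the 31-base words of Tnfrsf22 and 26.7% of those of Tnfrsf23 also occur in other genes, so their split of reads is uncertain, against 0.691% for Tnfrsf26. An antisense gene covers all of Tnfrsf22 and 699 bases of Tnfrsf26, with the strand setting of the counting not given in the sources used here.

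Ligands of the Tnfsf12 and Tnfsf13 locus on chromosome 11 (69682577 to 69696098, minus strand) rose together. Tnfsf12 (TWEAK), the ligand of Tnfrsf12a, had 2095, 1986, 2466 and 2193 normalized reads in DKO cells, against 1114, 1086, 1009 and 1014 in Vav-Cre cells. It was 2.06-fold higher without overlap (log2 fold change 1.05, SE 0.08, adjusted p = 6.38e-07) and was the ligand with the highest level per kb, at 1442 ± 136 normalized reads per kb in DKO cells and 697 ± 34.8 in Vav-Cre cells. Tnfsf12 was thus higher and its receptor Tnfrsf12a lower in every DKO library than in every Vav-Cre library. Tnfsf13 (APRIL) had 262, 213, 190.1 and 272 normalized reads in DKO cells, against 137, 102, 166 and 161 in Vav-Cre cells, 1.66-fold higher and without overlap (log2 fold change 0.73, SE 0.18, adjusted p = 0.00623). Tnfsfm13, which joins exons of both genes, had 551, 751, 564 and 811 normalized reads in DKO cells, against 366, 313, 272 and 266 in Vav-Cre cells, a 2.18-fold difference without overlap (log2 fold change 1.13, SE 0.15, adjusted p = 8.44e-05).

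These 3 genes cannot be counted apart with certainty. In annotated transcripts, 47.4% of the 31-base words of Tnfsf12 and 58.4% of those of Tnfsf13 also occur in Tnfsfm13, and 72.5% of the words of Tnfsfm13 are shared. Added up per library, an alternative chosen after the data were seen, Tnfsf12, Tnfsfm13 and Tnfsf13 had 2909, 2950.0, 3220.0 and 3275 normalized reads in DKO cells, against 1617, 1501, 1447 and 1441 in Vav-Cre cells. The summed locus was 2.06-fold higher in DKO cells (log2 fold change 1.04, SE 0.07, adjusted p = 1.79e-07). The antisense gene Tnfsf13os overlaps 4892 bases of Tnfsf12, 8565 bases of Tnfsfm13 and 2939 bases of Tnfsf13. With the strand setting of the counting not given, the sum does not remove this limit. Tnfsf12 took 66.9% to 76.6% of the sum in DKO cells and 68.9% to 72.3% in Vav-Cre cells, and Tnfsf13 took 5.90% to 9.01% in DKO cells and 6.83% to 11.5% in Vav-Cre cells. The shares overlapped between groups for Tnfsf12, Tnfsfm13 and Tnfsf13 alike.

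Tnfsf14 and Tnfsf9, which lie within 88.9 kb on chromosome 17, were both lower. Tnfsf14 (LIGHT), a ligand of Tnfrsf14 and Ltbr (57189492 to 57194177, minus strand), had 32.0, 28.1, 54.0 and 46.8 normalized reads in DKO cells, against 81.6, 116, 94.3 and 78.1 in Vav-Cre cells. The groups did not overlap and Tnfsf14 was 2.32-fold lower in DKO cells (log2 fold change -1.21, SE 0.25, adjusted p = 0.00212). Tnfsf9, the ligand of Tnfrsf9, a costimulatory receptor of T cells (57105325 to 57107757, plus strand), had 107, 118, 186 and 102 normalized reads in DKO cells, against 236, 220.4, 233 and 169 in Vav-Cre cells. DKO replicate 3 lay above Vav-Cre replicate 4, and Tnfsf9 was 1.70-fold lower in DKO cells (log2 fold change -0.77, SE 0.20, adjusted p = 0.00804). Tnfrsf9 itself had 4, 0, 0 and 5 reads in DKO cells, against 4, 4, 1 and 13 in Vav-Cre cells, too few to test. Gm11110 overlaps 618 bases of Tnfsf9 on the opposite strand.

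The remaining tested ligands did not pass. Tnfsf13b (BAFF), which also binds Tnfrsf13b, had 159, 121, 149 and 134 normalized reads in DKO cells, against 141, 131, 102 and 154 in Vav-Cre cells (log2 fold change 0.10, SE 0.17, adjusted p = 0.654). Tnfsf8, the ligand of Tnfrsf8, averaged 189.6 ± 16.7 normalized reads in DKO cells and 167 ± 34.1 in Vav-Cre cells (log2 fold change 0.20, SE 0.16, adjusted p = 0.334). Tnfsf10 (TRAIL) averaged 134 ± 24.0 normalized reads in DKO cells and 155 ± 30.3 in Vav-Cre cells (log2 fold change -0.21, SE 0.18, adjusted p = 0.380). Each of these ligands overlapped between the groups.

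**Figure D3:**
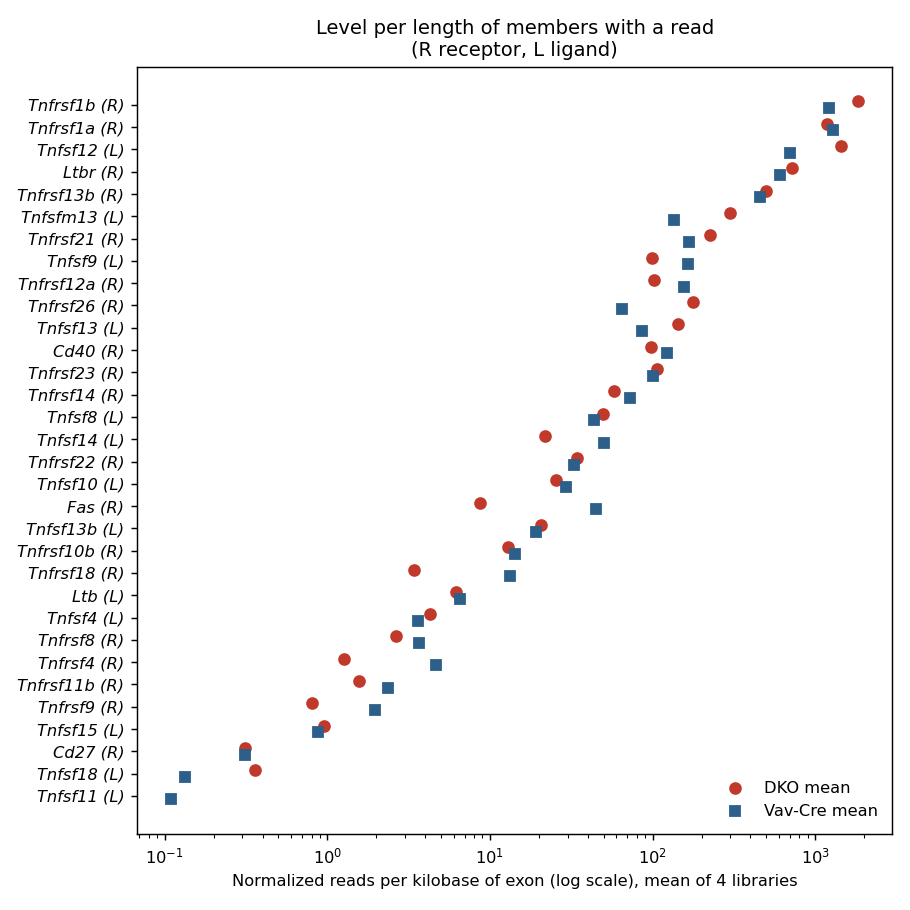
Mean normalized reads per kb of exon (x axis, log scale) for each member with reads, with circles for DKO and squares for Vav-Cre cells; the points are group means of 4 libraries, and a mean of 0 (Tnfsf11 in DKO cells) is not drawn. Tnfrsf1b, Tnfrsf1a, Tnfsf12, Ltbr and Tnfrsf13b lead the order, and most untested members lie under 10 normalized reads per kb.

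The 14 members that were not tested had few reads or none. Fasl, Tnfrsf25, Tnfrsf17, Tnfrsf19 and Tnfrsf13c had no read among 162268744 reads over the 8 libraries, which allows up to 0.0185 RPM over the series and 0.140 to 0.168 RPM in a library (a limit of 3 reads, for counting error only). Tnfrsf18 (GITR), a T cell costimulatory receptor, had 4, 1, 13 and 3 reads in DKO cells, against 7, 12, 55 and 2 in Vav-Cre cells. Most of its Vav-Cre reads thus came from replicate 3. Tnfrsf4 (OX40) had 0, 1, 3 and 3 reads in DKO cells, against 5, 15, 1 and 5 in Vav-Cre cells. The remaining untested members summed, over 4 libraries each, to 32 reads in DKO cells and 26 in Vav-Cre cells for Tnfsf4, and to 18 in DKO cells and 26 in Vav-Cre cells for Tnfrsf11b, the soluble decoy osteoprotegerin. Tnfsf15 summed to 13 reads in DKO cells and 12 in Vav-Cre cells, and Cd27 to 3 in each group. Tnfsf18 summed to 3 reads in DKO cells and 1 in Vav-Cre cells, and Tnfsf11 to 0 in DKO cells and 1 in Vav-Cre cells. Differences in these genes were not tested in the main fit, since their reads were too few at this depth.

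Members that neighbour each other did not always move alike. On chromosome 6 (125232622 to 125362484), Ltbr was higher, Tnfrsf1a did not pass and Cd27 was not tested. On chromosome 4 (145213463 to 145315164), Tnfrsf1b was higher and its neighbour Tnfrsf8 did not pass. In the chromosome 7 cluster Tnfrsf26 alone passed, whereas Tnfsf9 and Tnfsf14 on chromosome 17 both fell. The chromosome 11 ligands all rose, but they share sequence and are not separate observations. Differences between neighbours were not themselves tested.

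Promoters are shown for 3 called members that hold the same short element. RefSeq promoter windows, from 250 bases before to 50 bases after the start (GRCm38.p6), were found for 29 of the 37 members, 33 windows in all. They were searched on both strands for the AP-1 element TGANTCA, an NF-kB element (GGGA, any 2 bases, T, any base and CC) and the PU.1 element AGGAAGT. The AP-1 element was in 7 of 33 member windows (21.2%), against 7.81% of all 32817 promoters, and 6 members held it: Fas, Tnfsf14, Tnfsf13, Tnfsf13b, Tnfrsf8 and Tnfrsf9. The 2 windows of Tnfsf13b overlap and hold the same match, so that 1 match is counted for both windows in that share. The sequences below run along the strand of the gene, with the match in capitals, at position -211 from the start in Fas (chr19:34290409-34290708, plus strand), -160 in Tnfsf14 (chr17:57194132-57194431, minus strand) and -133 in Tnfsf13 (chr11:69685505-69685804, minus strand).
Fas: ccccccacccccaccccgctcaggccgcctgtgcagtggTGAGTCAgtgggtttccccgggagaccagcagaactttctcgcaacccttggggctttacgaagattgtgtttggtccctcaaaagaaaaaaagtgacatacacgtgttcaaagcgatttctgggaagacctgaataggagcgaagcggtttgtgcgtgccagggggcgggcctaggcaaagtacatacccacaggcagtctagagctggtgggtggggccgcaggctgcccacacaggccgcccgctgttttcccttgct
Tnfsf14: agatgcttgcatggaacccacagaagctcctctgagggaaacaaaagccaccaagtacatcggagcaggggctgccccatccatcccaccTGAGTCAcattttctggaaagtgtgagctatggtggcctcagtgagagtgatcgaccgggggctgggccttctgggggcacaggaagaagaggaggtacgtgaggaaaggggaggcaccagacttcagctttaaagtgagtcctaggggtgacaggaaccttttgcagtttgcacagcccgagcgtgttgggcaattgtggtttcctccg
Tnfsf13: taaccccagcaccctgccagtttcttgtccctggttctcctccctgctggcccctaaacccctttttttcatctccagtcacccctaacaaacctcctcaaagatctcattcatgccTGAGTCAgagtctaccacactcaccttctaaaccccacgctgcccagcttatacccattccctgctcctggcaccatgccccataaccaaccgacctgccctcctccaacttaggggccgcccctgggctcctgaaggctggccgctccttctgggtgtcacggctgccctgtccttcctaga
Fas and Tnfsf14 were lower and Tnfsf13 was higher in DKO cells, while Tnfsf13b and Tnfrsf8, which also hold the element, did not pass. The called members Tnfrsf1b, Ltbr, Tnfrsf21, Tnfrsf12a and Tnfsfm13 have windows without the AP-1 element. For the called members Tnfrsf26, Tnfsf12 and Tnfsf9 no window was found. The NF-kB element was in the windows of Ltb and Tnfrsf9, against 4.02% of all promoters. The PU.1 element was in those of Fasl, Ltbr, Tnfrsf13b and Tnfsf18, against 9.35%. The Tnfsf13 window and its position follow a RefSeq start, and GENCODE M21 places the start of that gene farther upstream. There Tnfsf13 runs from 69682846 to 69685784, so most of the window and its match lie inside that gene and inside Tnfsfm13. These matches describe the letters of the windows and are not measured binding sites.

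Genes that carry family signals were compared by lists, described by their counts. Of 50 genes tested in 5 lists, 15 were higher and 14 were lower in DKO cells (58.0%, against 46.6% of all genes), with a median log2 fold change of -0.018. The 11 receptor adaptors held 4 higher genes and 1 lower gene (45.5% called). Fadd, which joins death receptors to caspases, averaged 599 ± 74.2 normalized reads in DKO cells and 428 ± 26.9 in Vav-Cre cells (log2 fold change 0.48, adjusted p = 0.00296). Tradd, the adaptor of Tnfrsf1a, averaged 564 ± 70.1 in DKO cells and 393 ± 73.2 in Vav-Cre cells (0.53, adjusted p = 0.00781), and the ubiquitin ligase Traf6 averaged 953 ± 17.8 in DKO cells and 749 ± 74.0 in Vav-Cre cells (0.35, adjusted p = 0.00446). Traf1, an adaptor that pairs with Traf2, fell to 97.4 ± 29.0 in DKO cells, against 199 ± 66.0 in Vav-Cre cells (-1.02, adjusted p = 0.0065).

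Of the 6 genes of the non-canonical NF-kB route, 2 were lower and none was higher (33.3% called, against 46.6% of all genes). Map3k14, the kinase at its head, averaged 338 ± 54.9 normalized reads in DKO cells and 537 ± 37.9 in Vav-Cre cells (log2 fold change -0.68, adjusted p = 0.00073). Nfkb2, the subunit precursor it acts on, averaged 627 ± 32.6 in DKO cells and 831 ± 18.2 in Vav-Cre cells (-0.41, adjusted p = 0.000876). Chuk (adjusted p = 0.168) and Birc2 (adjusted p = 0.845) did not pass. Of the 19 canonical NF-kB genes, 8 were higher and 4 were lower (63.2% called). Tnfaip3 (A20), a ubiquitin-editing enzyme that restrains NF-kB, was 2.07-fold higher, with 579.8 ± 65.1 normalized reads in DKO cells and 281 ± 42.0 in Vav-Cre cells (1.05, adjusted p = 4.12e-05). Among the NF-kB subunits of that list, Rela was higher, at 2151 ± 145 in DKO cells and 1559.7 ± 109.9 in Vav-Cre cells (0.46, adjusted p = 0.000313), and Nfkb1 was lower, at 2249 ± 121 in DKO cells and 3101 ± 137 in Vav-Cre cells (-0.46, adjusted p = 8.86e-05). Rel (-0.26, adjusted p = 0.113) did not pass, nor did Relb of the non-canonical list (-0.0074, adjusted p = 0.958). Tab2, which couples ubiquitin chains to the kinase Map3k7, averaged 5137 ± 124 in DKO cells and 3741 ± 272 in Vav-Cre cells (0.46, adjusted p = 9.37e-05).

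**Figure D4:**
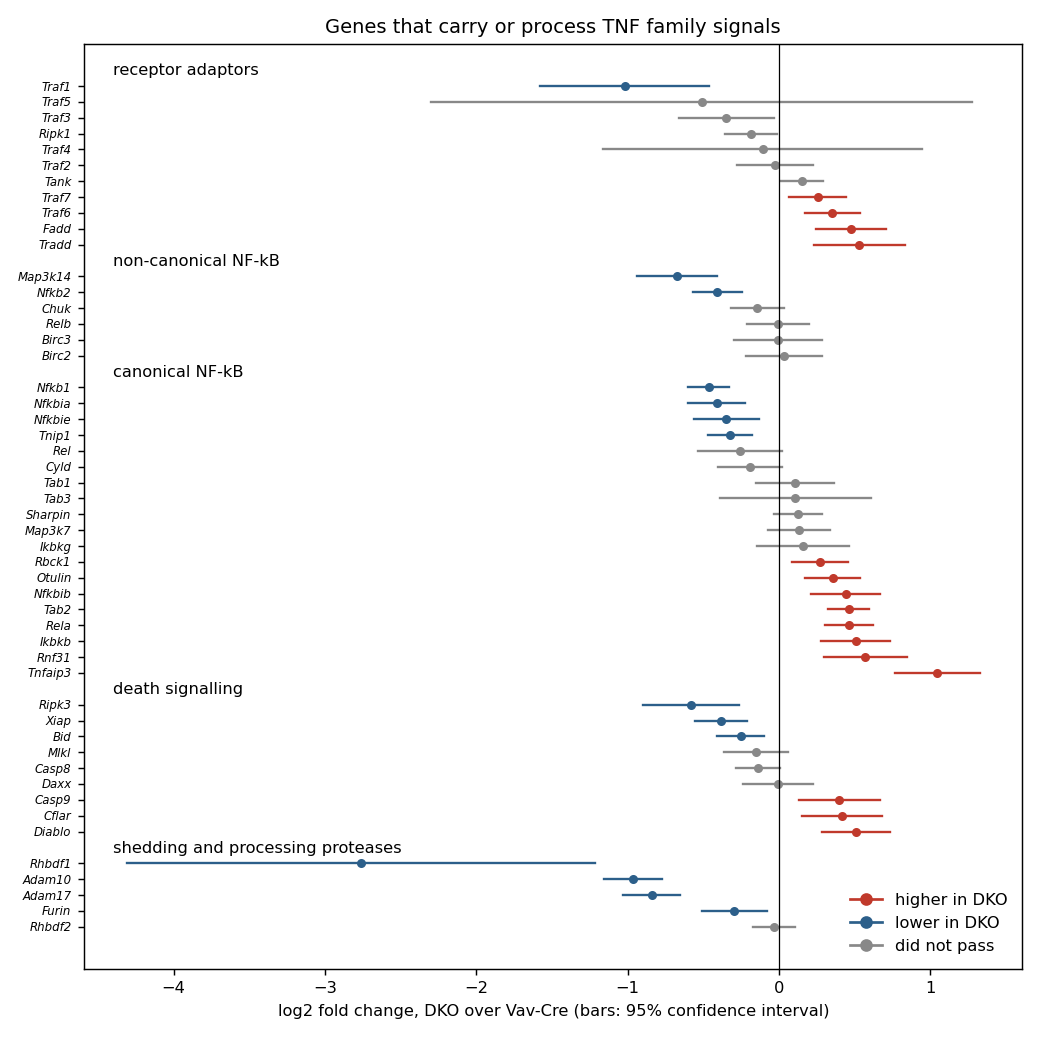
Log2 fold change (x axis, DKO over Vav-Cre) of the 50 tested genes of 5 signalling lists, with bars for the 95% confidence interval. Tnfaip3 at 1.05 has the highest estimate, and Adam10 and Adam17 at -0.96 and -0.84 lie left of all members of the NF-kB lists.

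Of 9 genes of death signalling downstream of these receptors that are reported here, 3 were higher and 3 were lower (66.7% called, against 46.6% of all genes). Xiap, an inhibitor of apoptosis, fell to 2294 ± 96.4 normalized reads in DKO cells, against 2999.6 ± 334 in Vav-Cre cells (log2 fold change -0.38, adjusted p = 0.00193). Diablo, which counters Xiap, rose to 607 ± 51.7 in DKO cells, against 426 ± 40.5 in Vav-Cre cells (0.51, adjusted p = 0.00161). Ripk3, the kinase that drives necroptosis, averaged 396 ± 73.4 in DKO cells and 592 ± 97.8 in Vav-Cre cells (-0.58, adjusted p = 0.00608). Bid, which carries a death receptor signal to mitochondria, averaged 970.3 ± 59.5 in DKO cells and 1156 ± 37.8 in Vav-Cre cells (-0.25, adjusted p = 0.0117). Xiap, Diablo, Ripk3 and Bid did not overlap between the groups. Cflar and Casp9, chosen after their values were seen, were also higher, with overlap between the groups. Cflar averaged 2918 ± 365 in DKO cells and 2198 ± 364 in Vav-Cre cells (0.41, adjusted p = 0.0151). Casp9 averaged 1019 ± 165 in DKO cells and 770 ± 94.0 in Vav-Cre cells (0.40, adjusted p = 0.0197).

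Of 5 genes of ligand and receptor shedding and processing, 4 were lower and none was higher (80.0% called, against 46.6% of all genes). Of the 4 lower genes, Rhbdf1 met the filter of 10 normalized reads through its Vav-Cre libraries. Its entry into this count thus depended on the group where it was higher. Adam17, which releases TNF and its receptors from the cell surface, averaged 3304 ± 318 normalized reads in DKO cells and 5927 ± 597 in Vav-Cre cells (log2 fold change -0.84, adjusted p = 9.81e-06). Adam10 averaged 4612 ± 340 in DKO cells and 9032 ± 1087 in Vav-Cre cells (-0.96, adjusted p = 3.17e-06). Rhbdf1, an inactive rhomboid that serves Adam17, was near the lowest level tested, at 5.20 ± 4.24 in DKO cells and 32.3 ± 14.6 in Vav-Cre cells (-2.76, adjusted p = 0.00728), and its estimate was -2.03 without DKO replicate 4. The related Rhbdf2 was far more abundant, at 1248 ± 54.8 in DKO cells and 1276 ± 34.0 in Vav-Cre cells, and did not pass (-0.033, adjusted p = 0.706). Furin, which cleaves Tnfsf13 before release, averaged 2442 ± 206 in DKO cells and 3009 ± 409 in Vav-Cre cells (-0.29, adjusted p = 0.0293) and lost its call in several alternatives (adjusted p of 0.0662 to 0.104). The macrophage marker sum, of which Lyz2 was the largest part, was also lower in the DKO libraries, while Cd68, Cd14 and Mertk of that list were higher. The part of macrophage content in these values was not tested.

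Family genes outside the symbol rule were few in these cells. Of 9 listed, 2 were tested: Tnf, given above, and Relt, a TNF receptor family member. Relt averaged 13.1 ± 7.37 normalized reads in DKO cells and 61.5 ± 13.8 in Vav-Cre cells, 4.81-fold lower (log2 fold change -2.27, SE 0.39, adjusted p = 0.00055). Cd70, Cd40lg, Edar and Ngfr had no read in any library. Cd40lg is the ligand of Cd40 and Cd70 that of Cd27.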

How the data were processed

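Total RNA was selected for polyadenylated transcripts and made into Kapa mRNA libraries, per the labels' protocols. The submitters' processing notes name Salmon 1.4.0, DESeq2 and build mm10. The deposited table holds a normalized signal per gene, which are read counts divided by a size factor for each library, as deposited by the authors. Dividing out the step of each library gave whole reads, which served for depth and count tests. The sources used here do not give the annotation, filters or strand setting. Coordinates come from GENCODE M21 (mm10).

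Genes with at least 10 normalized reads in at least 4 libraries (11675) were tested as log2(value + 1) with limma 3.58.1 (R 4.3.3; trend and robust options), all 8 libraries in the fit, with Benjamini-Hochberg adjustment over those genes. The test was checked on simulated data. Fold changes are on that log2 scale. For low genes the added 1 shrinks a change, while a single very low library can enlarge it. Alternatives were pseudocounts of 0.5 and 10, other filters, no trend, quantile normalization, edgeR 4.0.16, DESeq2 1.42.0, a replicate block, leaving out each library and averaging the DKO libraries by similarity. Members and lists were chosen with earlier results of these data known, and nothing was adjusted over a list. Values per library were set for called members of at least 1.5-fold (0.58 on the log2 scale) and a mean of 10, the 5 most abundant members and their partners; per signalling list, the 4 smallest adjusted p-values; Cdk8 and Cdk19 always. Some listed genes are not reported here and are left out of the list counts.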

Additional observations from a re-analysis of the deposited data

Results flagged for a closer look

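Each member and both kinases were checked in each group of 4 for a library that stood apart, by its gap to the nearest library as a share of the group's range (Dixon's test, 95% level). Of 78 groups, 67 had any spread and 7 met this. The 95% level holds for continuous values, not for counts of a few reads. Groups with reads in a single library meet it by construction, here Tnfsf11 and Tnfsf18 in Vav-Cre cells and Cd27 in DKO cells. Ltbr had 1268 normalized reads in Vav-Cre replicate 4, under the 1463 to 1501 of the other Vav-Cre libraries, and without that library its log2 fold change was 0.20 (limma adjusted p = 0.0232). Tnfrsf18 had 61.0 normalized reads in Vav-Cre replicate 3, from 55 of the 76 reads of that group. The remaining ones rest on 8 reads or fewer. Tnfsf15 had 7.71 normalized reads in Vav-Cre replicate 4, and Cd27 had 2.92 in DKO replicate 4. Tnfsf18 was at 0 in DKO replicate 3 and at 1.11 in Vav-Cre replicate 3. Tnfsf11 had 0.983 normalized reads in Vav-Cre replicate 1.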

How the results depend on the processing

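Called members numbered 10 to 12, against 11, and called genes 4150 to 5678, against 5444, over all alternatives. Of 412 member values under alternatives, 398 kept their direction and side of the threshold. Quantile normalization turned Tnfrsf10b to 0.012 and Ltb to 0.041 (log2), shifted the median of all genes to 0.05 and put 54.8% of calls higher, against 49.1%. Leaving out single libraries gave ranges across zero for Tnfrsf22 (-0.073 to 0.22), Ltb (-0.26 to 0.14), Tnfsf13b (-0.017 to 0.18), Tnfrsf23 (-0.042 to 0.20) and Birc2 (-0.020 to 0.13); none of these was called. Cdk8 kept its sign but missed the threshold with no filter (-0.35, adjusted p = 0.0550), without trend and robust options (-0.35, 0.0501), with the replicate block (-0.35, 0.0517) and after quantile normalization (-0.27, 0.0867), and ranged from -0.46 to -0.28 without single libraries. The cause was not tested. Replicate numbers did not pair the samples (correlations of same-numbered libraries -0.05, 0.03, -0.04 and -0.04); with the replicate block, 4649 genes and 11 members were called. Members that stayed under 10 normalized reads in more than 4 libraries were not tested in the main fit, as too low at this depth.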
